A study of Mus musculus with 47 samples.

Results

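Autophagy is the route by which a cell encloses part of its own cytoplasm in a membrane and delivers it to the lysosome for breakdown. The genes described here are 9 components of that route, taken by name: the kinase that starts it (Ulk1), a subunit of the lipid kinase that follows (Becn1), the conjugation enzymes (Atg5, Atg7), the ubiquitin-like proteins that are attached to the growing membrane (Map1lc3a, Map1lc3b, Gabarapl1), and receptors that bring cargo to it (Sqstm1, Bnip3). Where a gene had several probe sets, the brightest on average stood for it. Of the 9 genes, 7 were measured by a probe set of their own, and all 7 passed the filter on low intensity and are among the 10258 genes tested, out of 17097 genes measured. Map1lc3b had no probe set under its symbol in the annotation used here, and Sqstm1 shared its probe set with a neighbouring gene (Mrnip), so neither has a value below.

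The cells were satellite cells, the stem cells of skeletal muscle, from wild-type female C57B6/J mice, with 1 array per mouse and 47 arrays. Mice entered the experiment at 8 weeks of age, received a high-fat diet or its control diet without restriction for 7 weeks, and were 15 weeks old at collection. They were collected at zeitgeber time (ZT, hours after lights on) 0, 4, 8, 12, 16 and 20, with 4 mice in each of the 12 groups except high-fat ZT16, which has 3 here. The 4 mice of each diet at a given time came from a single day, so time of day and day of collection cannot be told apart, while both diets of a time point share a day.

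In muscle, autophagy removes damaged mitochondria and protein aggregates, and in satellite cells it is known to help maintain quiescence and to fuel activation. Ulk1 acts in a complex that is held back by mTORC1 when nutrients are plentiful and activated by AMPK when energy is low. FOXO and TFEB transcription factors are known to switch on autophagy genes, and Bnip3 is a classical target of hypoxia-inducible factors. The RNA level of these genes is not a measure of autophagic flux, which depends largely on protein modification.

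The values are log2 intensities after robust multi-array averaging, a method that gives all arrays nearly the same overall distribution, so each difference is relative to the bulk of genes. Array medians lay between 5.86 and 5.94, and arrays of the same group correlated at 0.969 to 0.987 across genes. Of 12 satellite cell markers listed, 11 were measured and all 11 passed the filter of 5.80. Pax7 had a mean of 10.92 and Myf5 of 10.59. Under the filter lay 6 of 7 measured immune markers, among them the leukocyte marker Ptprc at 3.85, but Cd68 lay at 8.63. Also under it were 3 of 7 fibroblast, 4 of 8 endothelial, 0 of 3 Schwann cell, 3 of 12 myofibre and 1 of 2 erythroid markers. Of those above it, Dpt and Col3a1 (fibroblast) lay at 11.38 and 11.31, Tek (endothelial) at 9.19 and Mbp (Schwann cell) at 9.22. Atp2a1 (myofibre) lay at 8.33 and Hba-a1 (erythroid) at 7.83, with highest values of 9.68 and 11.01 in a mouse. The markers thus do not show that other cells were absent. The RNA comes from many cells pooled per mouse, so fewer cells of a type and less RNA per cell cannot be told apart. Nothing in the labels states more than that replicates are biological. The p-values weigh differences against the spread between these mice. Each time has a single day of collection, so the spread between days of the same time was not measured.

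The promoter sequences of 3 members are shown because Ulk1 and Gabarapl1 carry the diet difference described next and Bnip3 is the member with a known response to hypoxia. They are the bases before the annotated gene start from RefSeq, build GRCm38.p6, read 5′ to 3′ on the gene's strand, with the hypoxia response core (ACGTG or GCGTG, either strand) in capitals; an E-box (CACGTG) contains that core on both strands.
Ulk1, chr5:110810121-110810331, minus strand: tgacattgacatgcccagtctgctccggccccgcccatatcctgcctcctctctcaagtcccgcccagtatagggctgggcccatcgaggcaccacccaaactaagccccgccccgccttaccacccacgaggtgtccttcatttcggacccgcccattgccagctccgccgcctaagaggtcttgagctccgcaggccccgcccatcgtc
Gabarapl1, chr6:129532942-129533191, plus strand: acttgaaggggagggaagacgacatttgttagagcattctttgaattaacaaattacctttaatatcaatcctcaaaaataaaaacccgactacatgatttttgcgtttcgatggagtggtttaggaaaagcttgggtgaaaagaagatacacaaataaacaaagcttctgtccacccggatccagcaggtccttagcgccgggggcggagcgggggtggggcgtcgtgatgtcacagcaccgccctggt
Bnip3, chr7:138909507-138909756, minus strand: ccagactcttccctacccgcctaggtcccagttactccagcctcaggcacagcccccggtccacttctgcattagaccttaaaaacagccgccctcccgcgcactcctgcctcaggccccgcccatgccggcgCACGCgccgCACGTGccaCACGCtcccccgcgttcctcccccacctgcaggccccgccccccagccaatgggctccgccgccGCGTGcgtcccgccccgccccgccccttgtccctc
The Bnip3 window held 5 matches to the core, of which 2 overlap in its single E-box. The printed Ulk1 and Gabarapl1 windows held none; the table's Ulk1 window has 1 core nearer to the start, beyond the bases printed. In 27025 promoters searched over 250 bases, 38.6% held at least 1 core, 6.05% an E-box, 3.09% a FOXO site (GTAAACA) and 0.86% a D-box (TTATGTAA, a site of clock-output factors). No FOXO site or D-box of these letters was found in the windows of Ulk1, Gabarapl1, Bnip3 or Atg5, and the Atg5 window held an E-box. A match describes the letters and is not evidence that a factor binds.

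Averaged over the 6 times, Ulk1 and Gabarapl1 fell on the high-fat diet and the other 5 members did not pass the test. Ulk1, the initiating kinase, had a lowest, median and highest value of 10.34, 10.75 and 11.16 in 24 control mice and of 10.22, 10.60 and 10.96 in 23 high-fat mice. Gabarapl1, a ubiquitin-like protein of the GABARAP branch of the Atg8 family that acts on the growing and closing membrane, had 10.71, 10.97 and 11.19 in control mice and 10.52, 10.83 and 10.97 in high-fat mice. For both genes the ranges overlapped widely and the high-fat median was the lower one.

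Gabarapl1 fell by 0.14 ± 0.03 (log2, SE), a high-fat to control ratio of 0.906, with an adjusted p of 0.00146 in limma, and its high-fat mean was the lower one at 6 of 6 times. Ulk1 fell by 0.13 ± 0.03, a ratio of 0.912, with an adjusted p of 0.00623, and its high-fat mean was lower at 5 of 6 times, ZT16 being the exception. These 2 calls among 7 members, both lower, stand beside 11.5% of all genes called in either direction and 6.8% called lower. On average the second probe set of each gene was also lower. It differed by -0.18 ± 0.05 (adjusted p 0.02) for Gabarapl1 and by -0.17 ± 0.06 (adjusted p 0.0448) for Ulk1. The counts of times with a lower mean are of the brightest probe sets, and the share of all genes with such counts was not taken. The second Gabarapl1 set was higher on the high-fat diet at ZT12 (0.09 ± 0.13) and at ZT16 (0.28 ± 0.14). The second Ulk1 set was lower at ZT16 (-0.14 ± 0.15). Both average calls of the brightest sets held in each of the 47 fits that left out 1 mouse.

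The remaining members showed no average difference that passed. Map1lc3a, the LC3 protein whose lipidated form marks autophagosomes, differed by -0.02 ± 0.03, with a 95% interval of -0.08 to 0.05. Becn1, in the lipid kinase complex that marks the site of membrane formation, differed by 0.01 ± 0.05, and its interval ran from -0.10 to 0.12. Atg7, the E1-like enzyme that activates the ubiquitin-like proteins, differed by less than its error (interval -0.16 to 0.15), as did Bnip3, a mitochondrial outer-membrane protein that recruits LC3 during mitophagy (interval -0.15 to 0.16). Differences of the size found for Ulk1 and Gabarapl1 lie inside the intervals of Atg7 and Bnip3 and outside those of Map1lc3a and Becn1. These intervals are of the brightest probe sets. The other Becn1 sets differed by -0.11 ± 0.08 and -0.09 ± 0.03 (adjusted p 0.385 and 0.0898), and the second Map1lc3a set by -0.03 ± 0.06. A fall of Becn1 of that size is therefore not excluded. Atg5, part of the complex that attaches LC3 and GABARAP proteins to lipid, differed by -0.18 ± 0.08 with an adjusted p of 0.132. Of the 47 fits without 1 mouse, 1 passed, that without control ZT12 replicate 1, whose value stood apart (adjusted p 0.0488). The other Atg5 probe sets differed by -0.05 ± 0.07 and 0.04 ± 0.10 (adjusted p 0.701 and 0.843). The median difference over the 7 members was -0.02, beside -0.01 over all genes.

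**Figure D1:**
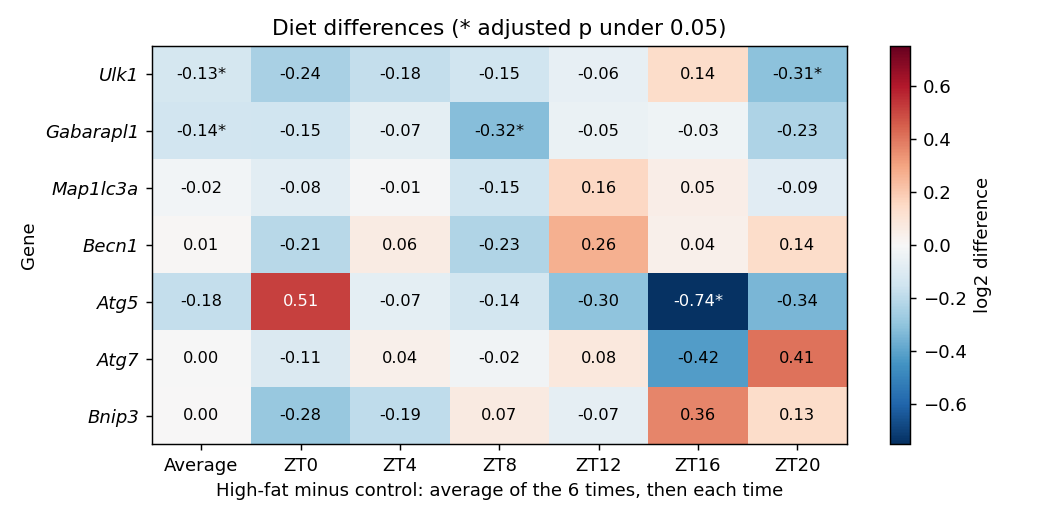
High-fat minus control difference (log2) of the 7 measured members at each of the 6 times and on average, by colour and number, with a star where the adjusted p is under 0.05. The average column reaches -0.14 for Gabarapl1 and -0.13 for Ulk1, and the single largest cell is Atg5 at ZT16 at -0.74.

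Single times gave 3 member calls, 1 each at ZT8, ZT16 and ZT20, and none at ZT0, ZT4 or ZT12. At ZT8, Gabarapl1 read 11.09, 10.88, 11.15 and 10.98 in the control mice and 10.83, 10.52, 10.73 and 10.74 in the high-fat mice. All 4 high-fat mice lay below all 4 control mice. Gabarapl1 fell by 0.32 ± 0.07, a ratio of 0.801, with an adjusted p of 0.0165, where 1.78% of all genes were called and 9.83% had groups that did not overlap. The call was lost without control ZT8 replicate 1 (adjusted p 0.0579), without control ZT8 replicate 3 (0.0808) and without high-fat ZT8 replicate 2 (0.0702). At that time the mean of the 3 Schwann cell markers was 7.26 to 7.46 in control and 7.46 to 7.80 in high-fat mice, and that of the 11 satellite cell markers was 10.02 to 10.11 and 10.11 to 10.32, both without overlap. The mean of the 7 fibroblast markers was 7.66 to 7.93 and 7.88 to 8.17. Their part in the result was not tested.

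At ZT20, Ulk1 read 11.04, 10.92, 11.16 and 10.78 in control mice and 10.73, 10.67, 10.53 and 10.75 in high-fat mice. The groups did not overlap, but control replicate 4 lay within 0.1 of the highest high-fat mouse. Ulk1 fell by 0.31 ± 0.08, a ratio of 0.808, with an adjusted p of 0.0482, against 0.819% of genes called and 6.33% with groups apart. The call sat at the threshold. It was lost in 7 of 8 alternative settings, among them the second Ulk1 probe set (-0.35 ± 0.14, adjusted p 0.227). The call was also lost in 27 of the 47 fits without 1 mouse, over which the adjusted p ran from 0.0128 to 0.168. Of the 8 mice of ZT20 themselves, control replicate 4 was the one that could be left out without losing it. Control ZT20 replicate 2 had the highest mean of the 8 endothelial markers of any mouse, 7.67 against a median of 6.15 over mice, and without it the adjusted p was 0.0764 and the difference -0.32. The mean of the 12 myofibre markers, 3 of them under the filter, was 6.38 to 6.78 in control and 6.16 to 6.37 in high-fat mice at ZT20, and its part was not tested.

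At the other times Ulk1 and Gabarapl1 were mostly lower on the high-fat diet without passing. Ulk1 differed by -0.24 ± 0.08 at ZT0 (adjusted p 0.0766), by -0.18 ± 0.08 at ZT4 (0.337), where its groups did not overlap, and by 0.14 ± 0.09 at ZT16 (0.29). Gabarapl1 differed by -0.15 ± 0.07 at ZT0 (0.252) and by -0.23 ± 0.07 at ZT20 (0.108), where as at ZT0 all high-fat mice were below all control mice. At ZT0, ZT4 and ZT12 the shares of all genes called were 3.56%, 0.312% and 0.858%, and groups did not overlap for 9.99% of genes at ZT0 and 5.38% at ZT4. No member passed limma's adjusted threshold at those times; at an unadjusted p under 0.05 there were 3 at ZT0 (Ulk1, Gabarapl1 and Atg5), 1 at ZT4 (Ulk1) and 2 at ZT12 (Becn1 and Map1lc3a, both higher on the high-fat diet). At that unadjusted threshold stood 18.2%, 12.3% and 14.4% of all genes at these times. The test of whether the diet difference varied over the day (diet by time interaction) was not passed by Ulk1 (adjusted p 0.0608) or by the brightest Gabarapl1 probe set (0.161). The second Gabarapl1 probe set did pass it (0.00868), with a difference of 0.28 ± 0.14 at ZT16 where the brightest set gave -0.03 ± 0.08, so the probe sets of this gene disagree there.

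Atg7 differed by -0.42 ± 0.20 at ZT16 (adjusted p 0.155) and by 0.41 ± 0.18 at ZT20 (0.306). At ZT20 all 4 high-fat mice lay above the controls, at a time when 6.33% of all genes had groups that did not overlap. Neither Atg7 difference passed, nor did any single-time difference of Map1lc3a, Becn1 or Bnip3. The Atg7 probe sets with means of 7.66 and 7.58 gave 0.02 ± 0.14 and 0.04 ± 0.11 at ZT16. At ZT20 they gave 0.10 ± 0.13 and -0.15 ± 0.10. The faintest set (mean 4.33, under the filter) gave -0.04 ± 0.04 at ZT16 and 0.07 ± 0.04 at ZT20. The Atg7 differences thus rest on the brightest probe set.

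**Figure D2:**
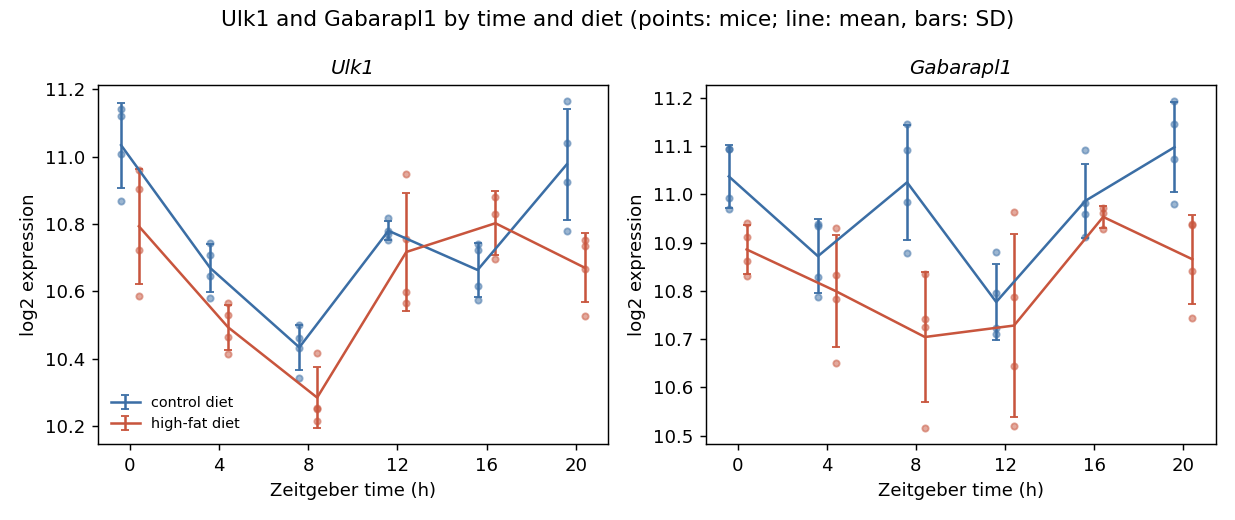
Log2 intensity of Ulk1 and Gabarapl1 in each mouse (points) against zeitgeber time (hours), with group means joined by lines for each diet. High-fat means lie below control means at all 6 times for Gabarapl1 and at 5 of 6 for Ulk1, and Ulk1 is lowest at ZT8 on both diets.

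Ulk1 also varied over the day on both diets. Control means were 11.03 ± 0.13 (SD, n = 4) at ZT0, 10.67 ± 0.07 at ZT4, 10.43 ± 0.07 at ZT8, 10.78 ± 0.03 at ZT12, 10.66 ± 0.08 at ZT16 and 10.98 ± 0.16 at ZT20. High-fat means were 10.79 ± 0.17, 10.49 ± 0.07, 10.28 ± 0.09, 10.72 ± 0.18, 10.80 ± 0.10 (n = 3) and 10.67 ± 0.10 in the same order. ZT8 had the lowest mean on both diets. Ordered by level, the control means ran ZT0, ZT20, ZT12, ZT4, ZT16 and ZT8. In that order the mice of ZT12 lay above those of ZT4 and the mice of ZT16 above those of ZT8. The other adjacent groups overlapped, and the share of all genes with such separations was not counted.

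A 24 h cosine fitted to the control mice gave Ulk1 an amplitude (mean to peak) of 0.24 ± 0.05 with the peak at 21.2 ± 0.7 h (adjusted p 0.00166), and it was the single member called, beside 10.5% of all genes. On the high-fat diet its amplitude was 0.20 ± 0.05 with the peak at 18.7 ± 0.9 h (adjusted p 0.00658), and Bnip3 was called too, beside 16.9% of all genes. These calls are of the brightest probe sets. The second Ulk1 probe set kept the control rhythm but not the high-fat one (adjusted p 0.0959). An Atg7 set with a mean of 7.58 passed on the control diet (amplitude 0.16 ± 0.04, peak at 21.2 h, adjusted p 0.0158). On the high-fat diet an Atg5 set with a mean of 4.76, under the filter, passed (amplitude 0.39 ± 0.11, adjusted p 0.0244). The difference between the rhythms of Ulk1 did not pass (adjusted p 0.209, unadjusted p 0.0264), and its second probe set peaked at 19.2 h in control mice and 18.7 h in high-fat mice (adjusted p of that difference 0.734). No member passed the test of a rhythm difference in limma, where 2.11% of genes did; at an unadjusted p under 0.05 there were 2, Ulk1 and Atg5, beside 18.9% of all genes. The second Gabarapl1 probe set did pass both the rhythm on the high-fat diet (amplitude 0.36 ± 0.06, adjusted p 0.000136) and the rhythm difference (0.0394), unlike the brightest set (0.0817 and 0.84).

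Bnip3 gave the other rhythm of the high-fat mice. Its high-fat values were 7.11, 6.80, 6.88 and 7.23 at ZT0, 7.35, 7.53, 8.05 and 7.73 at ZT12 and 7.51, 7.96 and 7.46 at ZT16. The ZT0 mice lay below all mice of ZT12 and ZT16, though the share of all genes with such a separation was not counted. The amplitude was 0.33 ± 0.08 with the peak at 14.2 ± 0.9 h (adjusted p 0.00786). With the day of collection as a random block the amplitude was nearly the same, 0.33, and the adjusted p was 0.0911. On the control diet Bnip3 had an amplitude of 0.12 ± 0.08 that did not pass, and the rhythm difference did not pass (adjusted p 0.382). At ZT16, all 3 high-fat mice lay above the 4 control mice (7.45, 7.25, 7.37 and 7.04), with a difference of 0.36 ± 0.20 and an adjusted p of 0.219, at a time when 29.1% of all genes had groups that did not overlap.

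**Figure D3:**
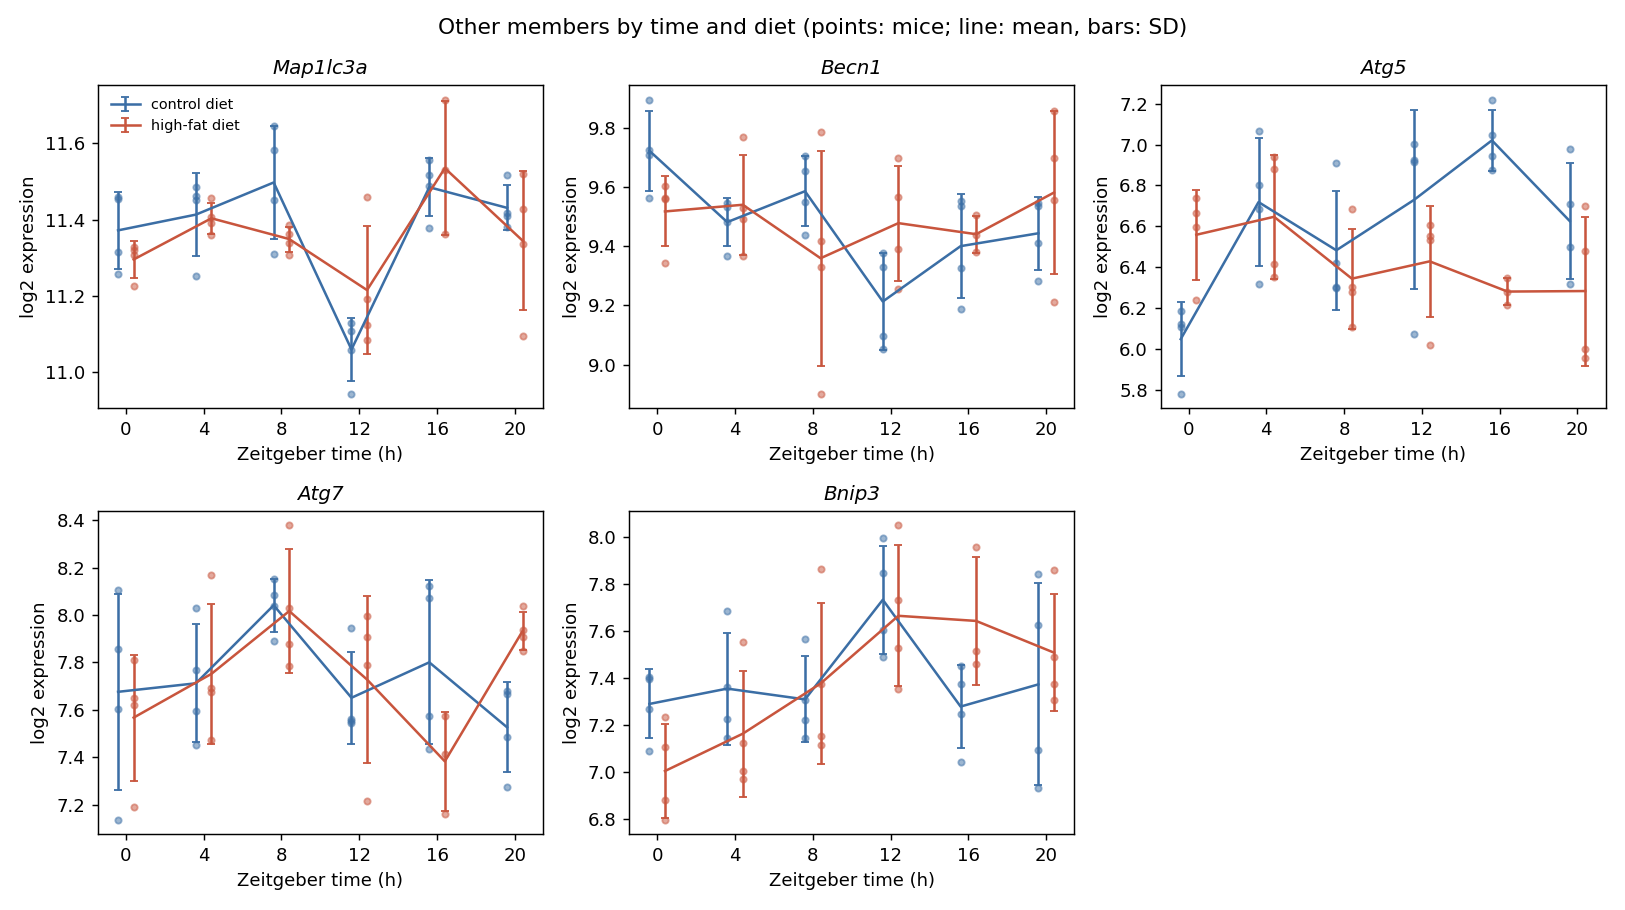
Log2 intensity of the other 5 measured members in each mouse (points) against zeitgeber time (hours), with group means joined by lines for each diet. Map1lc3a and Becn1 dip at ZT12 in the control mice, and the high-fat Bnip3 means run from 7.00 at ZT0 to 7.66 at ZT12.

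Taking time as 6 separate groups instead of a cosine, 5 of 7 members differed between times on the control diet, beside 36.3% of genes, and 4 of 7 on the high-fat diet, beside 40.1%. Map1lc3a, Gabarapl1 and Becn1 all had their lowest control mean at ZT12. Map1lc3a ranged over 0.44 between group means on the control diet (adjusted p 0.00021) and over 0.32 on the high-fat diet (0.0363), with its lowest mean at ZT12 on both. Its control ZT12 mice spanned 10.94 to 11.13, below every control mouse of the other times, the nearest of which was at 11.25. The share of all genes with a time set apart in this way was not counted. Becn1 ranged over 0.51 on the control diet (0.0304), where its ZT12 mice spanned 9.05 to 9.38. On the high-fat diet Becn1 did not pass (0.656). Because the mice of a time were collected on a single day, a dip at 1 time cannot be told apart from that day.

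Atg5 was the member whose diet difference varied most over the day. At ZT0 its control mice read 5.78, 6.11, 6.12 and 6.18 and its high-fat mice 6.74, 6.24, 6.66 and 6.60, all above the controls. At ZT16 the order was turned, with 7.04, 7.22, 6.94 and 6.88 in control mice and 6.35, 6.21 and 6.28 in high-fat mice, all below the controls. Groups did not overlap for 9.99% of all genes at ZT0 and for 29.1% at ZT16. The difference was 0.51 ± 0.19 at ZT0 (adjusted p 0.128) and -0.74 ± 0.21 at ZT16 (0.0137), a ratio of 0.599 at ZT16, where 13.3% of all genes were called. The diet by time interaction passed (adjusted p 0.0337, a range of differences of 1.25), as it did for 12.4% of all genes, and Atg5 was the single member called.

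The mean of this Atg5 probe set over all arrays, 6.52, lay not far above the filter of 5.80. Without high-fat ZT16 replicate 3 the ZT16 difference stayed at -0.74, with an adjusted p of 0.0542. The interaction was not called without the ZT16 mice (range 0.85, adjusted p 0.209). Over the fits that left out 1 mouse its range was 1.16 to 1.36, and the adjusted p was above 0.05 without any of the 3 high-fat ZT16 mice (0.0509, 0.0583 and 0.0614), without high-fat ZT0 replicates 1, 3 or 4 (0.0656, 0.0564 and 0.056), without control ZT0 replicate 1 (0.0711) and without control ZT16 replicate 2 (0.0568). The other 2 probe sets of Atg5 were also lower on the high-fat diet at ZT16, at -0.36 ± 0.17 and -0.57 ± 0.27, but did not pass (adjusted p 0.158 and 0.156), nor did their interactions (0.35 and 0.389). At ZT16 the mean of the 8 endothelial markers, 4 of them under the filter, was 6.04 to 6.12 in control and 6.29 to 6.37 in high-fat mice, and that of the 7 fibroblast markers, 3 under the filter, was 7.77 to 8.04 and 8.06 to 8.23. Both lists stood apart without overlap, and their part in the result was not tested.

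**Figure D4:**
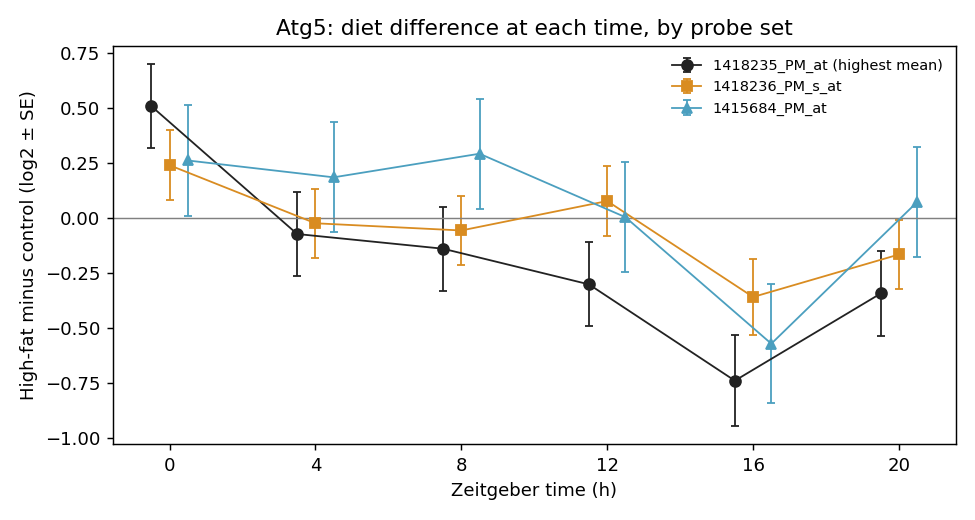
Log2 high-fat minus control difference of Atg5 at each zeitgeber time (hours) for its 3 probe sets, with bars of 1 SE. All 3 lie below 0 at ZT16, at -0.74, -0.36 and -0.57, and only the brightest passed the test there.

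The GABARAP relatives of Gabarapl1 fell on the high-fat diet as well. Gabarap read a lowest, median and highest value of 10.78, 10.96 and 11.19 in control and 10.50, 10.87 and 11.03 in high-fat mice, and fell by 0.10 ± 0.03 (adjusted p 0.0106). Gabarapl2, which also takes part in traffic through the Golgi, read 9.68, 10.00 and 10.29 in control and 9.51, 9.91 and 10.09 in high-fat mice, and fell by 0.13 ± 0.04 (0.0221). Their high-fat means were lower at 5 of 6 and 6 of 6 times. With Gabarapl1, all 3 tested GABARAP genes were thus called lower, as were 6.8% of all genes. Gabarap and Gabarapl2 come from a list in which 4 of 35 tested genes were called, beside 11.5% of all genes. Of the LC3 branch, Map1lc3a was not called and Map1lc3b has no value. The Map1lc3a probe set may also bind related transcripts. The difference between the branches was not tested. The Gabarap and Gabarapl2 calls held under all 54 alternative settings run on them.

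**Figure D5:**
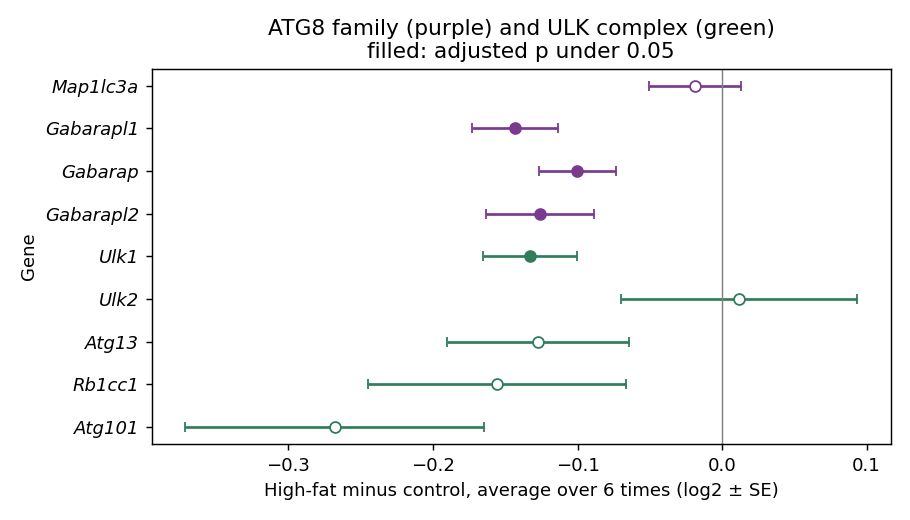
Average high-fat minus control difference (log2, with bars of 1 SE) of tested genes of the Atg8 family (purple) and of the Ulk complex (green), filled where the adjusted p is under 0.05. Gabarap, Gabarapl1 and Gabarapl2 lie between -0.10 and -0.14, and Map1lc3a lies at -0.02.

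Among 44 other genes of the autophagy machinery and its receptors, 38 were measured and 35 tested, and 4 fell and 0 rose on average over the day, beside 11.5% of all genes called. At an unadjusted p under 0.05 in limma, 9 were lower and 2 higher, beside 26.7% of all genes in either direction. Besides Gabarap and Gabarapl2, the called genes were Wdr45b, a phosphoinositide-binding protein of the forming membrane (-0.14 ± 0.03, adjusted p 0.00713, or 0.0608 without the ZT16 mice), and Pink1, the kinase that marks damaged mitochondria (-0.12 ± 0.04, 0.0366, lost in 14 of 54 settings). The median over the 35 genes was -0.03, beside -0.01 over all genes. The partners of Ulk1 in its complex did not pass on average: Atg13 differed by -0.13 ± 0.06, Rb1cc1 by -0.16 ± 0.09 and Atg101 by -0.27 ± 0.10 (adjusted p 0.0836 for the last). The interaction was called for 8 of the 35, beside 12.4% of all genes: Atg13 (adjusted p 0.0215), Zfyve1 (0.0161), Wdfy3, Ulk2, Bnip3l, Atg101, Tax1bp1 and Wdr45. Of 54 settings, Atg13 lost the call in 1 and Zfyve1 in 2, but Wdfy3 in 15, Ulk2 in 19, Bnip3l in 25, Atg101 in 27, and Tax1bp1 and Wdr45 in 39 each. Leaving out 1 mouse gave counts from 2 to 8, and without the ZT16 mice the count was 0. Bnip3l, the closest relative of Bnip3 and a mitophagy receptor of red cell maturation, was the 1 gene of the list with a called rhythm difference (adjusted p 0.0396), beside 2.11% of all genes.

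Of 27 upstream regulators, 24 were measured and 21 tested, and 5 were called on average, 3 higher and 2 lower, beside 11.5% of all genes. Sesn2, a stress-induced inhibitor of mTORC1, fell by 0.26 ± 0.06 (adjusted p 0.00155), and Mtor, the kinase of that complex, fell by 0.19 ± 0.05 (0.00857). The Mtor call was lost without the ZT16 mice (0.0548) and with the mean of all its probe sets (0.0841). Deptor, an mTOR-binding inhibitor, rose by 0.16 ± 0.03 (0.000399), Foxo3, a transcription factor of autophagy genes, by 0.15 ± 0.03 (0.000332) and Sesn1, a relative of Sesn2, by 0.20 ± 0.06 (0.0331). These 3 rises rest on ZT16: without the mice of that time the adjusted p was 0.344, 0.667 and 0.945. The Foxo3 difference was 0.78 ± 0.07 at ZT16 (adjusted p 8.44e-10). At that time the brightest sets of Ulk1, Gabarapl1 and Bnip3 differed by 0.14, -0.03 and 0.36, none of them called. The second sets of Ulk1 and Gabarapl1 differed by -0.14 ± 0.15 and 0.28 ± 0.14, also without passing. A link between Foxo3 and these genes was not tested. The interaction was called for 8 of the 21 (Foxo3, Deptor, Ddit4, Sesn1, Bcl2, Mitf, Tfe3 and Foxo1), beside 12.4% of all genes, and for 3 of them without the ZT16 mice (Foxo3, Bcl2 and Mitf). Foxo1 lost that call in 8 of 54 settings. The rhythm difference was called for 3 (Deptor, Mitf and Sesn1), beside 2.11% of all genes.

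Of 17 hypoxia-inducible genes, listed because Bnip3 is one of their kind, 16 were measured and 15 tested. On average Bhlhe40, a transcriptional repressor linked to the clock, rose by 0.20 ± 0.04 (adjusted p 0.00148) and Vegfa, the endothelial growth factor, fell by 0.26 ± 0.05 (0.00133). These 2 calls among 15 stand beside 11.5% of all genes called, and the median over the 15 was -0.02. Ankrd37, Ddit4, Ndrg1 and Mxi1 had a called interaction, beside 12.4% of all genes, and Ankrd37 a called rhythm difference, beside 2.11%. At ZT16, 5 of the 15 were called, 4 higher and 1 lower, beside 13.3% of all genes. Ddit4, an inhibitor of mTORC1, differed by 1.21 ± 0.25 at ZT16 (0.00107) and by -1.16 ± 0.23 at ZT20 (0.00544). Bnip3 at the same times differed by 0.36 ± 0.20 and 0.13 ± 0.18, neither called. A link between Ddit4 and Bnip3 was not tested.

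On the same average comparison, where 4.7% of all genes were called higher and 6.8% lower, 4 of 11 satellite cell markers rose, as did 2 of 4 tested fibro-adipogenic and fibroblast markers, 2 of 3 Schwann cell markers and 1 of 9 tested myofibre markers, while none of 4 tested endothelial markers was called and Cd68, the 1 tested immune marker, fell. The mean of the 7 fibroblast markers was 7.66 to 8.86 in control and 7.88 to 8.71 in high-fat mice, and of these Pdgfra, Lum and Pi16 were under the filter. The mean of the 3 Schwann cell markers was 7.13 to 7.93 and 7.18 to 8.22, and that of 11 satellite cell markers 10.02 to 10.22 and 10.01 to 10.49. Their part in the fall of Ulk1 and Gabarapl1 was not tested.

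The genes whose 12 group means followed each called member most closely are given as a description, over 12 points that share days and diets. For Ulk1 they were Bri3 (Pearson r 0.909), Tgoln1 (0.898) and Eppk1 (0.876). For Gabarapl1 they were Cert1 (0.884), Snrnp70 (0.870) and Npepps (0.857). For Atg5 they were Tarbp2 (0.862), Mrps12 (0.845) and Kif21a (0.828), and for Bnip3 Il17re (0.890), Lima1 (0.864) and Sez6 (0.858). None of the 12 is another member.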

How the data were processed

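The members and gene lists were chosen with earlier results of these data known. The deposited values are log2 intensities per probe set made with RMA (robust multi-array averaging), per the submitters' processing notes, which give no version or settings in the sources used. Of 45141 probe sets, the 551 annotated to several genes, the 15692 without a symbol and 104 controls were not used. One probe set a gene was kept, the brightest on average, and genes whose mean fell under the 40th percentile (5.80) were dropped, which left 10258 of 17097. In Affymetrix naming the sets kept for Gabarapl1 and Becn1 (suffix s) match several transcripts and that for Map1lc3a (suffix x) may bind related ones. The text names all members and, from 3 related lists, genes past the threshold on the diet average, the interaction or the rhythm difference, up to 8 a comparison.

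limma 3.58.1 in R 4.3.3 (lmFit, eBayes with intensity trend) was fitted to all mice. Diet differences came from 12 group means, rhythms from a 24 h cosine and sine within each diet, and rhythm differences from products of diet with both beside time as a factor. Tests were two-sided, with Benjamini-Hochberg adjustment over all genes tested and a threshold of 0.05. Values after ± are limma's SE unless SD is named. The models were tested on simulated data, and the number of arrays limits the precision. Equal replicate numbers did not pair mice: 1 of 23 same-number pairs of deviations correlated above 0.1 (range -0.19 to 0.11). Alternatives varied the filter, probe set rule, normalization, variance prior, array weights, replicate block, collection day and rhythm model, and left out each mouse. Leaving out the ZT16 mice and using other probe sets were added after the data were seen.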

Additional observations from a re-analysis of the deposited data

Results flagged for a closer look

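Among 77 groups of 4 mice checked for the 7 members, 4 held a mouse far from the other 3, where chance alone gives about 5% of groups. Map1lc3a read 11.25 in control ZT4 replicate 4, and its nearest neighbour was at 11.45. Atg5 read 6.08 in control ZT12 replicate 1, with the nearest at 6.91, and 6.02 in high-fat ZT12 replicate 3, with the nearest at 6.53. Atg7 read 7.94 in control ZT12 replicate 4, with the nearest at 7.56.

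The diet difference of Atg5 differed between times of day by the interaction test, with a range of 1.25 (log2) over the 6 times.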

How the results depend on the processing

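The falls of Ulk1 and Gabarapl1 averaged over the day kept their direction and their side of the threshold under every alternative run, with adjusted p of 0.00166 to 0.0449 for Ulk1 and 0.000339 to 0.02 for Gabarapl1, and over the fits without 1 mouse of 0.00213 to 0.0133 and 0.000242 to 0.00267. Among 275 recomputed values of called results, 0 changed sign. Where other results moved, the cause was not tested beyond what each setting itself changes. Cyclic loess moved the median of all genes by under 0.1.

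The number of genes or members called moved most with the choices that follow. Without the filter on low intensity, 314 genes were called at ZT8, 57 at ZT12, 0 members at ZT20 and 3 of the other machinery genes in the interaction. With the mean of all probe sets of a gene, 7 other machinery genes were called on average, 0 members at ZT20 and 4 members as rhythmic on the high-fat diet. Without the intensity trend, 0 members were called at ZT20. With array weights, 7 other machinery genes were called on average, 11 genes at ZT4, 775 at ZT8 and 2678 at ZT16. Array weights also gave 2199 genes and 3 members in the interaction, 2 members as rhythmic on the control diet, and 431 genes and 1 member (Atg5) in the rhythm difference. With cyclic loess, 0 members were called at ZT20 and 2 in the interaction.

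With collection day as a random block (consensus correlation 0.156), 289 genes were rhythmic in control mice and 580 in high-fat mice, with 1 member among the latter (Ulk1). Time as 6 levels gave 3725 genes and 5 members on the control diet and 4115 genes and 4 members on the high-fat diet. When the time factor was replaced by a cosine and sine, 22 genes had a rhythm difference. Without the ZT16 mice, 584 genes and 2 regulators were called on average, 22 genes at ZT12, 0 members at ZT20, and 271 genes, 0 members, 0 other machinery genes and 3 regulators in the interaction. Without them, 1062 genes were rhythmic on the high-fat diet and 15 differed in rhythm.

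With the replicate number as a block, 56 genes were called at ZT12, 0 members at ZT20 (Ulk1 at an adjusted p of 0.0592), 2 other machinery genes in the interaction and 105 genes in the rhythm difference. The numbers do not pair the mice, so the block stands here as a setting only.

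Leaving out 1 mouse at a time, genes called ran from 122 to 426 at ZT0, 10 to 39 at ZT4, 58 to 215 at ZT8, 16 to 107 at ZT12, 598 to 1406 at ZT16, 41 to 100 at ZT20, 837 to 1392 in the interaction and 59 to 247 in the rhythm difference. Members called ran from 0 to 1 at ZT0, ZT8, ZT16 and ZT20, 0 to 2 in the interaction, 1 to 2 as rhythmic on the control diet and 0 to 1 in the rhythm difference. Other machinery genes called in the interaction ran from 2 to 8. The lowest counts at ZT16 and for the rhythm difference came without high-fat ZT16 replicate 3.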
